A study of Homo sapiens with 12 samples.

Results

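The genes described here encode the splicing factors named SRSF, HNRNP and TRA2, the CLK kinases and the SRRM proteins. They were selected by symbol alone, and names that ended in P plus digits, the pattern of pseudogenes, were left out. The selection gave 42 genes of the 20771 in the count table, namely 11 SRSF, 22 HNRNP, 2 TRA2, 4 CLK and 3 SRRM genes. All 42 were among the 16515 genes with enough counts to be tested. For 2 of them, the libraries of 1 group decided this. SRRM3 reached the level of the filter on low counts in EW8 at 48 h alone, the group where it is high, and HNRNPCL1 depended on TC71 at 0 h. The call of SRRM3 is therefore given as values and not as support, and counts that lead a comparison are also given without both genes.

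Pre-mRNA splicing is steered by proteins that bind exons and introns next to the spliceosome. SR proteins (SRSF genes) carry an arginine- and serine-rich domain and mostly favor exon inclusion, and the TRA2 proteins are their relatives. The hnRNPs coat nascent transcripts and often silence exons. CLK kinases phosphorylate the arginine- and serine-rich domain and so control where SR proteins reside and how active they are, and SRRM1 and SRRM2 are arginine- and serine-rich proteins of nuclear speckles. Many of these genes limit their own expression through transcripts with a premature stop codon or a retained intron.

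RNA was sequenced from EW8 and TC71, which are Ewing sarcoma cell lines. In both, the endogenous RRM1 gene, which encodes the catalytic subunit of ribonucleotide reductase, was targeted with CRISPR/Cas9, and a codon-optimized RRM1 transgene under a doxycycline-inducible promoter supplied the protein in its place. Each knockout line (EW8-RRM1-KO and TC71-RRM1-KO) was single-cell cloned after the knockout, and which clone or clones gave the libraries is not given in the sources used here. The libraries labeled 0 h came from cells kept in doxycycline and those labeled 48 h from cells without doxycycline for 48 hours, with 3 libraries in each of the 4 groups. The comparison asks how the RNA of each line changed once the transgene was switched off. Bulk RNA cannot tell a lower level per cell from a smaller share of cells that express a gene.

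Libraries held 18468485 to 35698991 counts. At the RRM1 gene itself, the libraries labeled 0 h held 9.37, 9.50 and 9.66 CPM (counts scaled to library size by TMM) in EW8 and those labeled 48 h held 63.8, 72.6 and 74.05. In TC71 these values were 15.7, 15.5 and 17.3 CPM at 0 h and 25.7, 26.4 and 24.04 CPM at 48 h. The gene was therefore higher, not lower, in the libraries labeled 48 h of both lines. Because the transgene is codon-optimized and whether its reads were counted here is not given in the sources used, RRM1 counts do not check the labels, and the directions below follow the labels. JUN and FOS, subunits of the transcription factor AP-1 that the study also followed as proteins, were higher in the libraries labeled 48 h of both lines. JUN was at 4.64, 4.87 and 4.05 CPM in those labeled 0 h and 423, 408 and 419 in those labeled 48 h in EW8, and at 10.6, 10.98 and 9.84 and 220.3, 205 and 257 in TC71. FOS was at or below 1.28 CPM in every library labeled 0 h and at or above 43.9 CPM in every library labeled 48 h. All 10 Ewing sarcoma markers on a list were in the table and 9 or 10 of them exceeded 1 CPM in each group. Of 13 markers of other cell types, 4 were in the table. Their summed level was 10.5 to 13.9 CPM at 0 h and 36.9 to 45.8 CPM at 48 h in EW8, and 25.7 to 28.0 and 38.6 to 46.3 CPM in TC71, and the part of this in the results was not tested. Of these 4, COL1A1 made up most of the sum, with group means of 11.2 CPM at 0 h and 38.5 CPM at 48 h in EW8. In TC71 its means were 20.6 and 32.5 CPM. KRT8 was at 0.774 and 3.09 CPM in EW8 and at 5.61 and 8.36 CPM in TC71. EPCAM was at 0.143 and 0.333 CPM in EW8 and at 0.935 and 1.46 CPM in TC71. PTPRC was at or below 0.114 CPM in the mean of every group. The mitochondrial share of counts was 3.80 to 4.09% at 0 h and 3.05 to 3.54% at 48 h in EW8, and 4.20 to 5.11% and 2.68 to 3.99% in TC71, and its part was not tested either.

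The splicing factor genes mostly declined after 48 hours without doxycycline, with most HNRNP genes lower in both lines and 3 of 4 CLK genes higher in EW8. In EW8, 12 of the 42 genes rose, 26 fell and 4 did not pass the test (edgeR quasi-likelihood test, adjusted p below 0.05). Among all 16515 tested genes, 68.6% were called in EW8, 37.0% higher and 31.6% lower, whereas the shares of the splicing factor genes were 28.6% and 61.9%. Without SRRM3 and HNRNPCL1, 11 of 40 genes rose and 26 fell. In TC71, 4 rose, 23 fell and 15 did not pass, or 9.52% and 54.8%, with 22.9% and 19.2% of all tested genes called higher and lower (42.1% in all). Only 2 genes rose in TC71 without its 0 h replicate 1, and likewise without its 0 h replicate 2. Libraries of the 2 times did not overlap for 13 genes higher and 26 lower in EW8, and for 4 and 25 in TC71, where all tested genes gave 37.9% and 33.2% in EW8 and 25.9% and 23.7% in TC71. With total counts in place of TMM, the TC71 split became 9 higher and 16 lower. The 42 genes had a median log2 fold change of -0.30 for EW8 and -0.13 for TC71, beside 0.03 and -0.00 for all tested genes. Few changes were large, among these genes as among all tested genes. A change past 2-fold was called for 5 rises (4 without SRRM3) and 1 fall in EW8, where 13.9% of all tested genes rose and 3.35% fell by as much, and for none in TC71, where these shares were 3.26% and 0.854%.

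**Figure D1:**
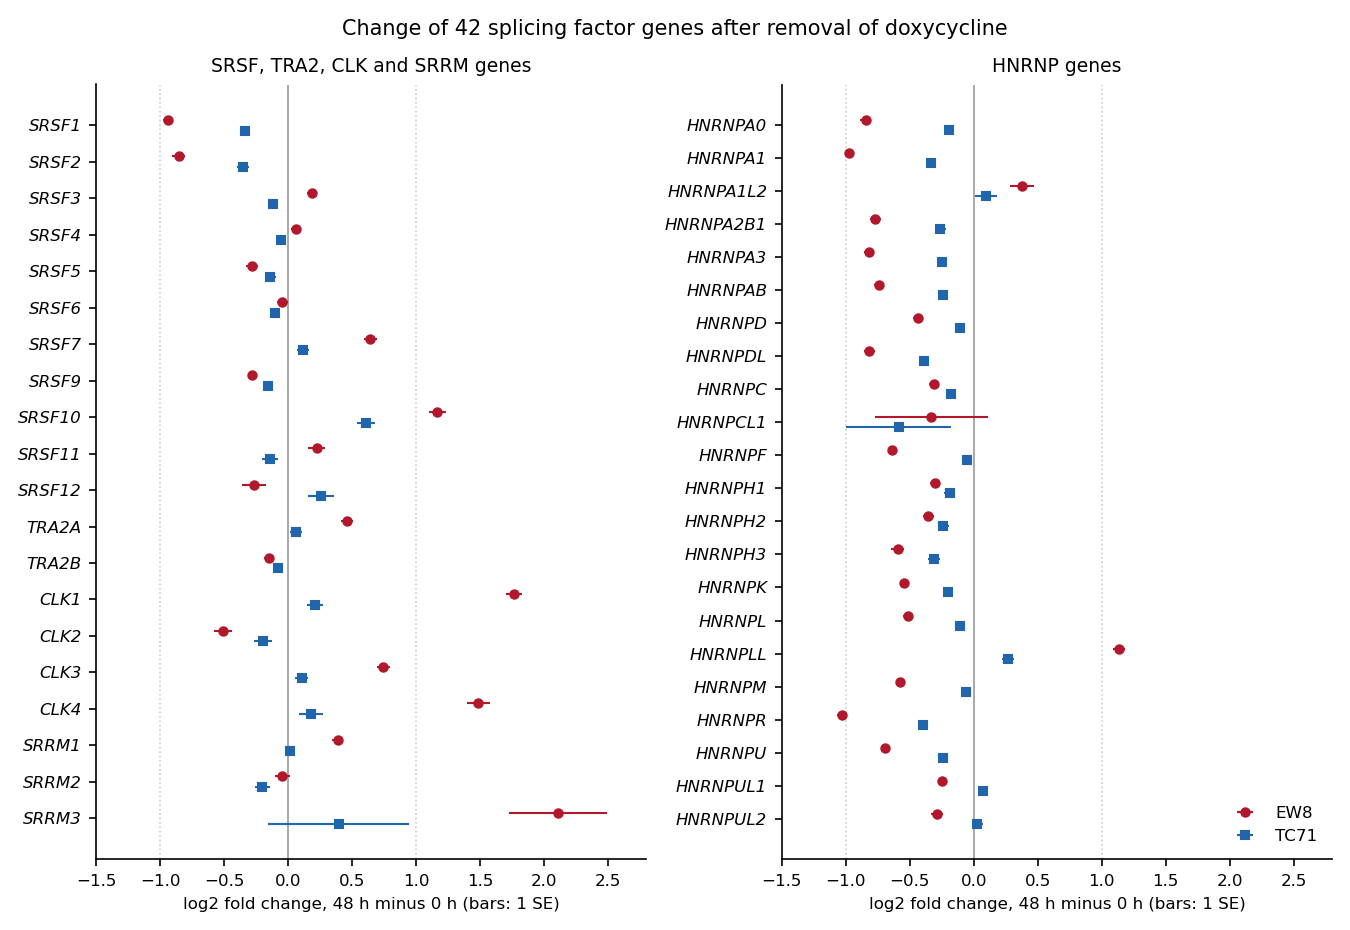
Log2 fold change of 42 splicing factor genes from 0 h to 48 h without doxycycline, one row per gene, in EW8 (red circles) and TC71 (blue squares). Horizontal bars are 1 standard error and dotted lines mark a 2-fold change. EW8 points lie farther from 0 than TC71 points for 39 of the 42 genes, CLK1 reaches 1.77 and HNRNPR reaches -1.03 in EW8.

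The promoters are shown for 4 genes whose upstream 150 bases hold no annotated exon of the gene itself and which cover both directions of change. CLK2, HNRNPAB and HNRNPH2 were lower in EW8 and SRSF7 was higher. The 150 bases before each RefSeq gene start (GRCh38.p14) are written 5′ to 3′ on the strand of the gene, with capitals for matches to any of 8 motifs searched on both strands, which here are CACGTG (E-box), GGGCGG (SP1) and CCAAT.
CLK2 (chr1:155273505-155273654, minus strand): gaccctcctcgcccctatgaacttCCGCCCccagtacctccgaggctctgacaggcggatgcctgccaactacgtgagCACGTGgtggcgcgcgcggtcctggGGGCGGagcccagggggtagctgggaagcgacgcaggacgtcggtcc
HNRNPH2 (chrX:101408072-101408221, plus strand): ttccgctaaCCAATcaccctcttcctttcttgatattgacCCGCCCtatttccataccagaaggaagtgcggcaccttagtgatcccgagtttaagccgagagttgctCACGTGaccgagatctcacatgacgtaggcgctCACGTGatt
HNRNPAB (chr5:178204383-178204532, plus strand): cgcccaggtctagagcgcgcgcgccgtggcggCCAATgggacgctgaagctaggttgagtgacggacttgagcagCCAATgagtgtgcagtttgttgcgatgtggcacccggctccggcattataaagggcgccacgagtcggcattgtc
SRSF7 (chr2:38751495-38751644, minus strand): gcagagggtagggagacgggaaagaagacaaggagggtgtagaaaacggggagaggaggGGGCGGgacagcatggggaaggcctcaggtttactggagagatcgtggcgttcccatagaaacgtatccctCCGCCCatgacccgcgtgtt
The E-box letters CACGTG stood at 1 place upstream of CLK2 and at 2 places upstream of HNRNPH2. In the full 300-base RefSeq windows (250 bases before the start and 50 after), 9 of the 39 splicing factor genes with an entry held CACGTG (23.1%), compared with 10.0% of 10921 promoters of tested genes. They were CLK2, CLK4, HNRNPA3, HNRNPD, HNRNPDL, HNRNPH2, HNRNPH3, HNRNPM and HNRNPUL1, of which CLK4 rose in EW8 and the other 8 fell. Falls were also the more common call among all 39 genes, of which 24 fell and 11 rose in EW8. GGGCGG was found in 27 of 39 (69.2%, and 69.1% of all promoters), CCAAT in 17 (43.6% and 36.6%) and the ETS letters CCGGAAG in 5 (12.8% and 18.8%). TGANTCA (AP-1), TGACGTCA (CRE) and the longer NRF1 and SRE motifs were in none of the 39 windows, and in 4.56%, 3.23%, 2.33% and 0.0641% of all promoters. No motif contains another. HNRNPA1, SRSF2 and TRA2A have no entry.

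CLK1 and CLK4, with SRSF10 and HNRNPLL, were called higher by more than 2-fold in EW8, as was SRRM3, whose place among the tested genes rests on its high group. CLK1 (chr2:200853009-200864691, hg38, minus strand), a kinase of SR proteins, was present at 56.9, 53.2 and 51.4 CPM at 0 h and 179, 189 and 180.1 CPM at 48 h in EW8. The groups did not overlap, and the 48 h libraries were higher by 3.40-fold (log2 fold change 1.77 ± 0.06 (SE), adjusted p = 9.69e-17). In TC71, CLK1 was at 90.4, 89.3 and 110.0 CPM at 0 h and 108, 118 and 109 CPM at 48 h. One 0 h library overlapped the 48 h libraries there, and the log2 fold change was 0.21 ± 0.06 (SE), adjusted p = 0.00912. This call was lost without TC71 0 h replicate 1 (log2 fold change 0.16) and without replicate 2 (0.15). CLK4 (chr5:178602664-178630615, hg38, minus strand) held 10.1, 11.1 and 10.6 CPM at 0 h and 26.1, 29.4 and 33.2 CPM at 48 h in EW8. Its 3 libraries at 48 h were all above those at 0 h, and the log2 fold change was 1.48 ± 0.09 (SE), adjusted p = 5.34e-16. In TC71, CLK4 held 11.4, 10.98 and 13.97 CPM at 0 h and 13.5, 14.7 and 13.1 CPM at 48 h, with overlapping groups and a log2 fold change of 0.18 ± 0.09 (SE), adjusted p = 0.116, which passed only without TC71 0 h replicate 3 (0.30) or with total counts (0.23).

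CLK3 rose in EW8 from 48.8, 51.8 and 52.2 to 85.2, 82.6 and 88.1 CPM (log2 fold change 0.74 ± 0.05 (SE), adjusted p = 5.28e-15). In TC71 it was at 53.3, 55.8 and 55.4 CPM at 0 h and 58.5, 56.3 and 62.1 CPM at 48 h (log2 fold change 0.11 ± 0.05 (SE), adjusted p = 0.0887). Without TC71 48 h replicate 2 its log2 fold change was 0.13 and the call passed, as it did with total counts (0.16). CLK2 went the other way from the other 3 kinases. It was at 71.7, 82.2 and 71.2 CPM at 0 h and 53.3, 52.2 and 52.4 CPM at 48 h in EW8, a fall of 1.42-fold (log2 fold change -0.51 ± 0.07 (SE), adjusted p = 2.13e-06). Its TC71 libraries held 80.8, 87.2 and 93.7 CPM at 0 h and 78.8, 82.2 and 67.6 CPM at 48 h (log2 fold change -0.20 ± 0.07 (SE), adjusted p = 0.0234), and that call was lost in 4 of 21 alternatives, among them without 0 h replicate 3 (-0.14) or 48 h replicate 3 (-0.11). Summed over the family, CLK expression was 190.5 ± 6.93 CPM (SD, n = 3) at 0 h and 350.3 ± 5.87 CPM at 48 h in EW8, and 251 ± 19.7 CPM and 261 ± 9.46 CPM in TC71, where the groups overlapped.

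**Figure D2:**
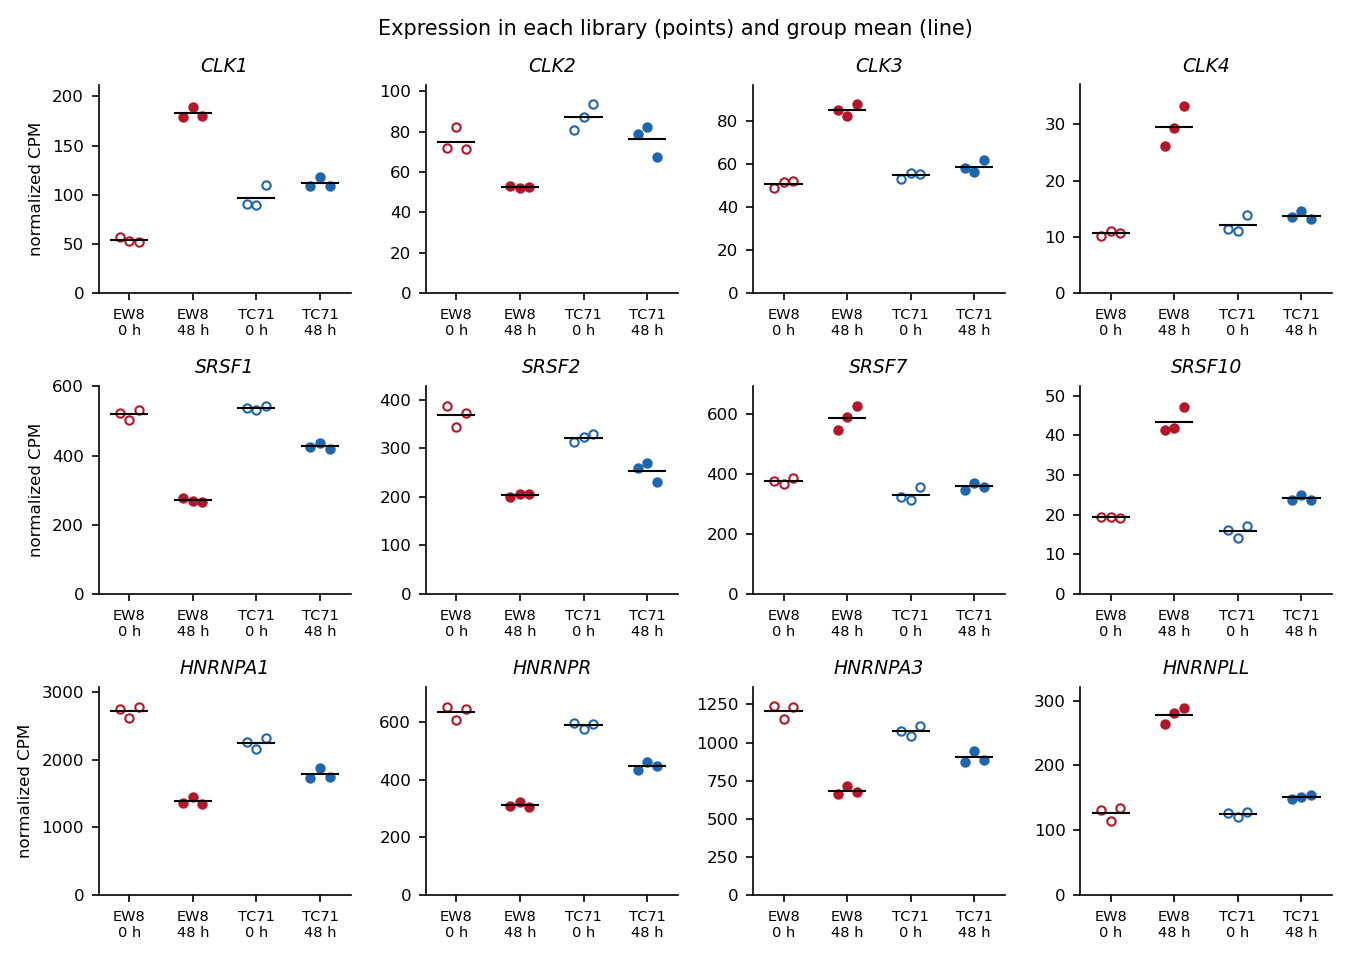
Normalized expression (CPM, linear axis from 0) of 12 splicing factor genes in each library, with open points for 0 h, filled points for 48 h, red for EW8, blue for TC71, and a line at the mean of 3 libraries. The 3 EW8 libraries at 48 h of CLK1 lie between 179 and 189 CPM, above every other group, and those of HNRNPA1 lie between 1339.6 and 1451 CPM, below every other group.

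SRSF genes were called in both directions in EW8, with a share of rises near that of all tested genes. Of 11 genes, 4 rose (SRSF3, SRSF7, SRSF10 and SRSF11), 5 fell (SRSF1, SRSF2, SRSF5, SRSF9 and SRSF12), and SRSF4 and SRSF6 did not pass, which is 36.4% higher and 45.5% lower beside 37.0% and 31.6% of all tested genes. In TC71, SRSF10 and SRSF12 rose, SRSF1, SRSF2, SRSF3, SRSF5, SRSF6 and SRSF9 fell, and 3 did not pass, or 18.2% and 54.5% beside 22.9% and 19.2%. SRSF10 (chr1:23964347-23980927, hg38, minus strand), which turns into a splicing repressor when it loses its phosphates, was at 19.5, 19.5 and 19.1 CPM at 0 h and 41.3, 41.9 and 47.00 CPM at 48 h in EW8. All 48 h libraries exceeded all 0 h libraries by 2.24-fold on average (log2 fold change 1.17 ± 0.07 (SE), adjusted p = 6.81e-17). In TC71 it was at 16.1, 14.1 and 17.03 CPM at 0 h and 23.6, 24.9 and 23.7 CPM at 48 h (log2 fold change 0.61 ± 0.07 (SE), adjusted p = 1.6e-08), the largest called rise of any splicing factor gene in that line. SRSF7, an SR protein that also takes part in mRNA export, rose in EW8 from 376, 365 and 385 to 545, 588 and 626 CPM (log2 fold change 0.64 ± 0.05 (SE), adjusted p = 2.58e-12). Its TC71 value lay at the threshold, with 322, 312 and 356 CPM at 0 h and 347, 370.0 and 356 CPM at 48 h (log2 fold change 0.12 ± 0.05 (SE), adjusted p = 0.0513). It passed in 8 of 21 alternatives, among them without EW8 48 h replicate 1 (0.12) or 3 (0.11), TC71 0 h replicate 3 (0.17) or TC71 48 h replicate 1 (0.14).

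SRSF1, which binds purine-rich exonic enhancers, and SRSF2, a component of nuclear speckles, fell in both lines. SRSF1 (chr17:58000919-58007346, hg38, minus strand) was at 523, 503 and 532 CPM at 0 h and 278, 269 and 266 CPM at 48 h in EW8, 1.92-fold lower (log2 fold change -0.94 ± 0.04 (SE), adjusted p = 7.82e-22). The TC71 libraries held 538, 533 and 544 CPM at 0 h and 425, 437 and 419 CPM at 48 h (log2 fold change -0.33 ± 0.04 (SE), adjusted p = 1.78e-09). Neither line had overlapping groups. SRSF2 fell from 388, 344 and 372 to 199, 206 and 206 CPM in EW8 (log2 fold change -0.85 ± 0.05 (SE), adjusted p = 2.17e-15) and from 313, 324 and 329.8 to 259, 269 and 229.7 CPM in TC71 (log2 fold change -0.35 ± 0.05 (SE), adjusted p = 8.11e-07). The annotated exons of SRSF2 overlap those of other genes, so some of its counts may belong to them. SRSF5 and SRSF9 fell less, with log2 fold changes of -0.28 and -0.28 in EW8 and -0.14 and -0.16 in TC71. The TC71 call of SRSF5 was lost without 0 h replicate 3 (-0.11) or 48 h replicate 3 (-0.08).

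SRSF3 and SRSF12 were called in opposite directions in the 2 lines. SRSF3, an SR protein with roles in splicing and export, was at 735, 705 and 766 CPM at 0 h and 819, 837 and 852 CPM at 48 h in EW8 and at 596, 582 and 586 CPM at 0 h and 518, 552 and 555 CPM at 48 h in TC71. Its libraries did not overlap between times in either line. The log2 fold changes were 0.18 ± 0.04 (SE), adjusted p = 3.95e-05, and -0.12 ± 0.04 (SE), adjusted p = 0.00903, respectively. The TC71 call was lost without 0 h replicate 1 (-0.11), without 48 h replicate 1 (-0.09) and with total counts (-0.07). SRSF12 was expressed at low levels, 12.5, 11.7 and 10.6 CPM at 0 h and 9.51, 10.2 and 9.10 CPM at 48 h in EW8 and 6.89, 6.32 and 6.86 CPM at 0 h and 8.28, 8.68 and 7.23 CPM at 48 h in TC71. Its log2 fold changes were -0.26 ± 0.10 (SE), adjusted p = 0.0153, and 0.26 ± 0.10 (SE), adjusted p = 0.0387. The TC71 rise was lost in 11 of 21 alternatives, and leaving out 1 library moved it between 0.20 and 0.34. The EW8 fall was lost without 48 h replicate 3 (-0.23) and with total counts (-0.14). SRSF11 rose in EW8 (0.22 ± 0.06 (SE), adjusted p = 0.00674), and that call was lost without 0 h replicate 2 (0.16) or 3 (0.18). In TC71 its log2 fold change was -0.14 ± 0.06 (SE), adjusted p = 0.0952, and it passed without 48 h replicate 2 (-0.21). SRSF4 and SRSF6 had EW8 log2 fold changes of 0.07 and -0.04, neither past the test.

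Most HNRNP genes were lower at 48 h. In EW8, 19 of 22 fell, 2 rose and 1 did not pass, which is 86.4% lower and 9.09% higher beside 31.6% and 37.0% of all tested genes. In TC71, 15 fell, 1 rose and 6 did not pass, which is 68.2% lower and 4.55% higher beside 19.2% and 22.9%. Their median log2 fold changes were -0.56 and -0.20. Their summed expression was 15388 ± 503 CPM (SD, n = 3) at 0 h and 9944 ± 228 CPM at 48 h in EW8, a ratio of 0.646. In TC71 it was 13295 ± 315 CPM and 11433 ± 297 CPM, a ratio of 0.860. The libraries of the 2 times did not overlap in either line. By contrast, the sum over SRSF genes was 3576 ± 114 CPM and 3433 ± 66.3 CPM in EW8, where the groups overlapped, and 3278 ± 89.7 CPM and 2970.2 ± 108 CPM in TC71, where they did not. The EW8 log2 ratio of the SRSF sum was -0.06, and it turned to 0.07 with total counts.

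**Figure D3:**
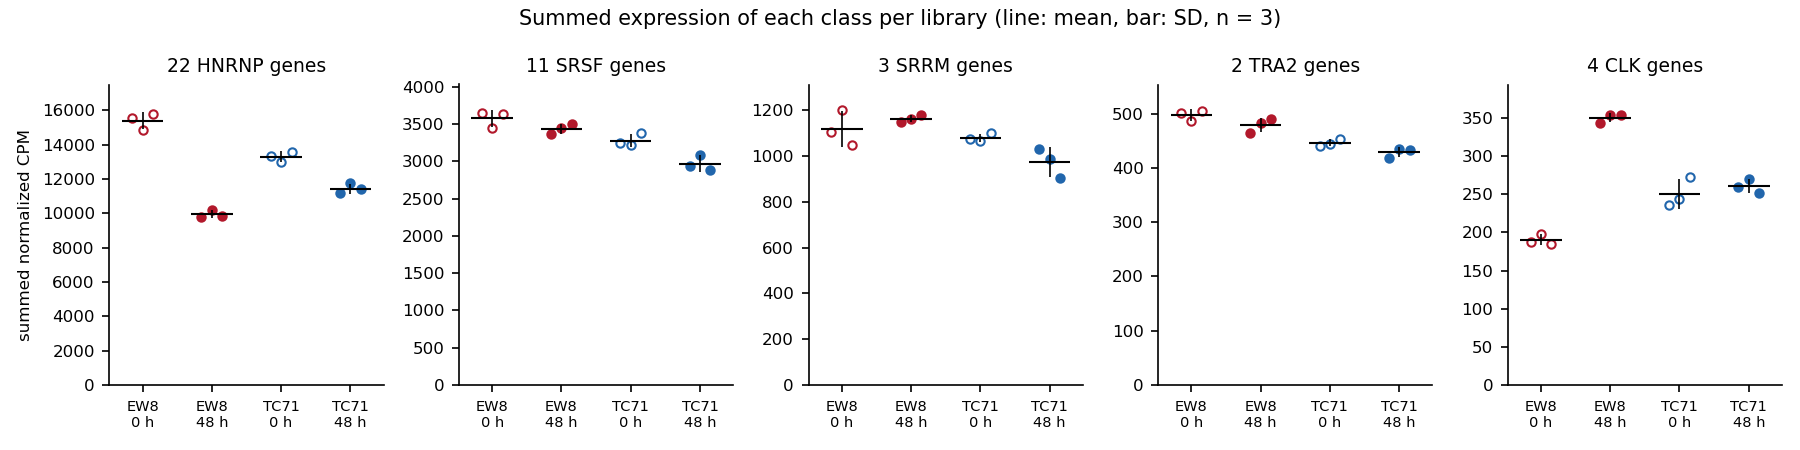
Summed normalized expression (CPM, linear axis from 0) of each class of splicing factor genes in every library, with the mean (line) and SD (bar) of 3 libraries per group. In EW8 the HNRNP sum is 15388 ± 503 CPM at 0 h and 9944 ± 228 CPM at 48 h, and the CLK sum is 190.5 ± 6.93 CPM and 350.3 ± 5.87 CPM.

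Among the hnRNP A/B and D genes, 7 of 8 fell in EW8 and 7 of 8 in TC71, where 31.6% and 19.2% of all tested genes fell. HNRNPA1 (chr12:54280193-54287088, hg38, plus strand), a well-known exon silencer, had the highest level of the 42 genes per kilobase of its canonical transcript in all 4 groups, 726 ± 22.9 CPM per kb (SD, n = 3) at 0 h in EW8 and 601 ± 22.8 in TC71. Its libraries held 2751, 2622 and 2784 CPM at 0 h and 1369, 1451 and 1339.6 CPM at 48 h in EW8, 1.96-fold lower (log2 fold change -0.97 ± 0.04 (SE), adjusted p = 1.18e-21). In TC71 they held 2270.2, 2154 and 2321 CPM at 0 h and 1738, 1873 and 1749 CPM at 48 h (log2 fold change -0.33 ± 0.04 (SE), adjusted p = 7.86e-09). HNRNPA2B1, its close relative, was second at 575 CPM per kb in EW8, and had log2 fold changes of -0.77 ± 0.04 (SE) and -0.26 ± 0.04. HNRNPA0, HNRNPA3, HNRNPAB and HNRNPDL fell, with log2 fold changes of -0.85, -0.82, -0.74 and -0.82 in EW8, and -0.19, -0.25, -0.24 and -0.39 in TC71. HNRNPA1L2 stood apart and rose in EW8 (8.27, 9.62 and 8.84 to 11.4, 11.02 and 12.1 CPM, log2 fold change 0.38 ± 0.09 (SE), adjusted p = 0.000493), with 0.10 ± 0.08 (SE), adjusted p = 0.368 in TC71. It is a single-exon copy of HNRNPA1, so how reads were shared between the copies makes its value uncertain.

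HNRNPR (chr1:23303771-23344336, hg38, minus strand), which binds mRNA, was the only splicing factor gene called lower by more than 2-fold. It was at 652, 607 and 646 CPM at 0 h and 309, 322 and 304 CPM at 48 h in EW8, and the 48 h libraries were 2.04-fold lower (log2 fold change -1.03 ± 0.04 (SE), adjusted p = 2.36e-22). TC71 libraries held 597, 574 and 593 CPM at 0 h and 435, 461 and 447 CPM at 48 h (log2 fold change -0.39 ± 0.04 (SE), adjusted p = 1.44e-10). The 2 times did not overlap in either line. With total counts its log2 fold change in EW8 was -0.90, under 2-fold. HNRNPH3 and HNRNPF, which bind runs of guanine, fell in EW8, with log2 fold changes of -0.59 ± 0.05 (SE) and -0.64 ± 0.03, and in TC71 had -0.31 ± 0.05, called, and -0.05 ± 0.03, not called (adjusted p = 0.195). The scaffold protein gene HNRNPU fell in both lines (-0.69 ± 0.04 and -0.24 ± 0.03). The smallest called HNRNP falls in EW8 were those of HNRNPUL1 (-0.25 ± 0.04), HNRNPUL2 (-0.29 ± 0.05), HNRNPH1 (-0.30 ± 0.04) and HNRNPC (-0.31 ± 0.04). HNRNPCL1, at 12, 6 and 10 counts at 0 h and 5, 9 and 4 counts at 48 h in EW8, had a log2 fold change of -0.33 ± 0.44 (SE), adjusted p = 0.517, which did not pass.

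HNRNPLL (chr2:38561969-38603586, hg38, minus strand), known for its control of CD45 splicing in lymphocytes, was the HNRNP gene called higher in both lines. It was at 131, 114 and 134 CPM at 0 h and 263, 281 and 289 CPM at 48 h in EW8, 2.19-fold higher (log2 fold change 1.13 ± 0.05 (SE), adjusted p = 7.03e-20). In TC71 it was at 127, 120.0 and 129 CPM at 0 h and 149, 151 and 154 CPM at 48 h (log2 fold change 0.27 ± 0.05 (SE), adjusted p = 3.69e-05). All 48 h libraries were above all 0 h libraries in each line. Its paralog HNRNPL moved the other way, by -0.52 ± 0.04 (SE) in EW8 and -0.11 ± 0.03 in TC71.

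Besides SRRM3, the TRA2 and SRRM genes gave 2 rises and 1 fall in EW8, and 1 fall in TC71. These genes are too few to set against the shares of all tested genes called higher and lower, 37.0% and 31.6% in EW8 and 22.9% and 19.2% in TC71. TRA2A rose in EW8 (67.5, 63.5 and 66.4 to 86.9, 90.8 and 94.05 CPM, log2 fold change 0.46 ± 0.05 (SE), adjusted p = 4.12e-10) and TRA2B fell (434, 422 and 439 to 378, 392 and 396 CPM, log2 fold change -0.15 ± 0.04 (SE), adjusted p = 0.000356), a call lost with total counts (-0.03). In TC71 their log2 fold changes were 0.06 ± 0.05 (SE), adjusted p = 0.305, and -0.08 ± 0.04 (SE), adjusted p = 0.0639, and TRA2B passed without EW8 0 h replicate 1 (-0.10), 2 (-0.08) or 3 (-0.10). TRA2A passed in TC71 with total counts (0.11). SRRM1 rose in EW8 from 241, 239.8 and 238 to 299.8, 320.2 and 319 CPM (log2 fold change 0.39 ± 0.04 (SE), adjusted p = 2.08e-10), and had 0.02 ± 0.04 (SE), adjusted p = 0.756 in TC71. SRRM2 fell in TC71 (-0.20 ± 0.06 (SE), adjusted p = 0.0103), although not with total counts (-0.15), and had -0.05 ± 0.06 (SE), adjusted p = 0.495 in EW8, called without EW8 0 h replicate 3 (-0.14). SRRM3, which acts on neuronal microexons and was kept for testing only through the EW8 libraries at 48 h, had 4, 7 and 7 counts at 0 h and 23, 18 and 23 counts at 48 h in EW8 (log2 fold change 2.11 ± 0.38 (SE), adjusted p = 1.03e-05). At 2, 4 and 6 and 10, 4 and 5 counts in TC71, its log2 fold change was 0.40 ± 0.55 (SE), adjusted p = 0.594.

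For 36 of the 42 genes (85.7%) the fold changes of the 2 lines had the same sign, and for 39 (92.9%) that of EW8 was the larger in size, and among all tested genes these shares were 74.1% and 76.8%. Of the 42 genes, 3 rose in both lines (CLK1, HNRNPLL and SRSF10), 20 fell in both and 2 were called in opposite directions, and for all tested genes these shares were 17.6% rising in both, 14.3% falling in both and 2.82% called in opposite directions. The fold changes of the 42 genes in EW8 and TC71, which come from separate libraries, had a Pearson r of 0.81 and a Spearman rho of 0.83 across genes, and over all tested genes r was 0.70 and rho 0.63. Genes are not independent replicates, so these are descriptions. The difference between the log2 fold changes (EW8 minus TC71) was itself past the test for 32 of the 42 genes. It was positive for 11 and negative for 21, or 26.2% and 50%, with 25.7% and 22.4% of all tested genes called (48.1% in all). Without SRRM3 and HNRNPCL1 it was positive for 10 of 40 and negative for 21. Past 2-fold it was positive for CLK1 and CLK4, and for SRRM3 on the filter's terms given above, and negative for 0, with 7.28% and 0.981% of all tested genes. The positive differences were those of SRSF3, SRSF7, SRSF10, SRSF11, TRA2A, CLK1, CLK3, CLK4, SRRM1, SRRM3 and HNRNPLL. CLK1 differed by 1.56 ± 0.09 (SE), adjusted p = 3.34e-12, CLK4 by 1.30 ± 0.13 (SE), adjusted p = 6.19e-10, and HNRNPLL by 0.86 ± 0.07 (SE), adjusted p = 4.79e-12. Among the negative differences, HNRNPA1 had -0.64 ± 0.05 (SE), adjusted p = 6.4e-12, SRSF1 had -0.61 ± 0.05 (SE), adjusted p = 6.76e-12, and HNRNPF had -0.58 ± 0.05 (SE), adjusted p = 5.01e-12. For 10 genes, including SRSF4, SRSF5, SRSF6, SRSF9, TRA2B, HNRNPH1 and HNRNPH2, the difference did not pass.

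**Figure D4:**
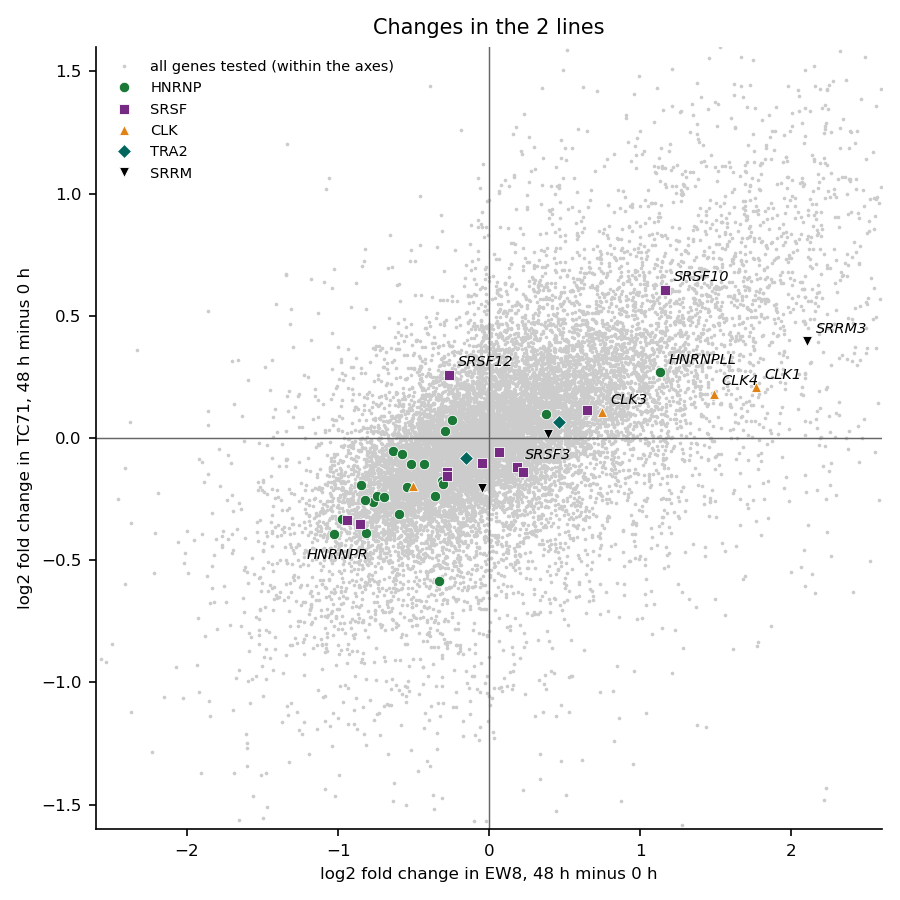
Log2 fold change from 0 h to 48 h in EW8 (x axis) against that in TC71 (y axis) for each splicing factor gene, colored by class, over all tested genes in gray (genes beyond the axes are not drawn). Most HNRNP genes lie in the lower left quadrant, CLK1 lies at 1.77 in EW8 and 0.21 in TC71, and SRSF12 lies at -0.26 and 0.26.

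The 2 lines already differed before doxycycline was removed. At 0 h, 21 of the 42 genes were higher in EW8 and 8 were higher in TC71, while 32.8% and 32.9% of all tested genes were called in these directions (65.7% in all). Libraries of the lines did not overlap for 21 genes higher in EW8 and 12 higher in TC71, beside 34.0% and 34.3% of all tested genes. None of the 42 genes differed by more than 2-fold, a size reached by 4.77% and 11.9% of all tested genes. The split depended on scaling, with 11 and 18 under total counts, which move the median of all genes by -0.13, and 18 and 14 with upper-quartile factors. HNRNPR and HNRNPA0 changed direction with total counts, as did HNRNPLL, HNRNPD and HNRNPH2, which had not passed the test with TMM. Relative to other genes, SRSF12 (log2 difference 0.78 ± 0.10 (SE), adjusted p = 1.66e-08), SRSF9 (0.72 ± 0.04 (SE), adjusted p = 4.01e-18) and HNRNPAB (0.71 ± 0.04 (SE), adjusted p = 6.49e-18) were the most elevated in EW8. CLK1 (-0.84 ± 0.07 (SE), adjusted p = 1.07e-10), SRSF11 (-0.50 ± 0.06 (SE), adjusted p = 5.02e-06) and SRSF4 (-0.43 ± 0.04 (SE), adjusted p = 4.57e-12) were the most elevated in TC71. CLK1 thus started lower in EW8 and ended higher there at 48 h. These values share the 0 h libraries with both responses.

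Many of these genes have transcripts annotated for nonsense-mediated decay or with a retained intron. In GENCODE 44, 32 of the 42 genes (76.2%) had a transcript annotated for nonsense-mediated decay, compared with 47.0% of 12850 protein-coding genes tested, and 33 (78.6%) had a retained-intron transcript, compared with 59.8%. The 42 genes also had more annotated transcripts, a median of 13 beside 8 for the protein-coding genes tested. A gene with more transcripts has more room for 1 of these kinds, and the part of this was not tested. All 11 SRSF genes had a nonsense-mediated decay transcript, and so did both TRA2 genes and 3 of 4 CLK genes. Of the 12 genes that rose in EW8, 10 had such a transcript, as did 19 of the 26 that fell. Gene counts do not separate these transcripts from productive ones. Exons of 21 genes share positions with another annotated gene, 12 on the same strand and 14 on the other strand, so counts there may be split.

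Other splicing genes were examined from 8 lists with 175 tested genes, and values in parentheses are log2 fold changes ± SE. In EW8 50 rose and 89 fell (28.6% and 50.9%, beside 37.0% and 31.6% of all tested genes), and in TC71 24 rose and 60 fell (13.7% and 34.3%, beside 22.9% and 19.2%). The shares below are to be read against these all-gene shares. Of 15 Sm and LSm genes, the core of the spliceosomal snRNPs, 13 fell (86.7%) and 1 rose in EW8, and 4 fell (26.7%) and 1 rose in TC71. LSM2 fell the most in EW8 (-0.98 ± 0.06, SE) and LSM8 rose (0.35 ± 0.05). Of 16 other hnRNP-like and PTB genes, 2 rose and 12 fell (75%) in EW8, and in TC71 2 rose and 7 fell (43.8%). TARDBP, which encodes TDP-43, fell in EW8 (-0.93 ± 0.05), whereas PTBP2, the neuronal PTB protein, rose from 43.3, 42.3 and 43.2 to 119, 130.4 and 129 CPM (1.55 ± 0.06). Of 30 genes of the U1 and U2 snRNPs and U2AF, 4 rose and 17 fell (56.7%) in EW8, and in TC71, with 4 rising and 12 falling (40%), SF3B1 fell (-0.38 ± 0.04).

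Among 35 genes of the tri-snRNP, NTC and helicases, 12 rose and 13 fell in EW8 (34.3% and 37.1%, near the shares of all tested genes), with SLU7, a factor of the second step, at 1.03 ± 0.05 (SE) and the helicase gene DHX15 at -0.78 ± 0.04. Among 20 genes of the exon junction complex and nonsense-mediated decay, 7 rose and 9 fell (35% and 45%), and among 23 speckle and paraspeckle genes, 9 rose and 10 fell (39.1% and 43.5%). In the latter list RSRC2 rose from 119, 109 and 119 to 373, 389 and 403 CPM in EW8 (1.75 ± 0.05) and DDX17, an RNA helicase, fell (-0.86 ± 0.06). In TC71, RSRC2 rose (0.38 ± 0.05) and DDX17 fell (-0.51 ± 0.06). The TC71 counts of these 3 lists were 4 rising and 7 falling, 3 and 7, and 3 and 9. Among 13 genes for kinases of SR proteins, import factors and the phosphatase subunits PPP1CA and PPP1R8, 6 rose and 4 fell in EW8 (46.2% and 30.8%), and in TC71 1 rose and 6 fell (7.69% and 46.2%). PPP1CA was one of those that fell in EW8 (-0.23 ± 0.05) and PPP1R8 one of those that rose (0.13 ± 0.04). The kinase gene DYRK1B rose from 5.60, 7.10 and 6.83 to 67.8, 61.4 and 65.6 CPM in EW8 (3.32 ± 0.08) and by 0.58 ± 0.07 in TC71, and DYRK2 fell in both (-1.12 ± 0.05 and -0.51 ± 0.06). Of 23 genes on a list of splicing regulators that differ between tissues, which also holds widely expressed genes such as RBM39 and KHDRBS1, 9 rose and 11 fell in EW8 (39.1% and 47.8%), and in TC71 6 rose and 8 fell (26.1% and 34.8%). The epithelial regulator ESRP1, called higher in both lines, had 1, 2 and 3 counts at 0 h and 50, 53 and 42 counts at 48 h in EW8.

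**Figure D5:**
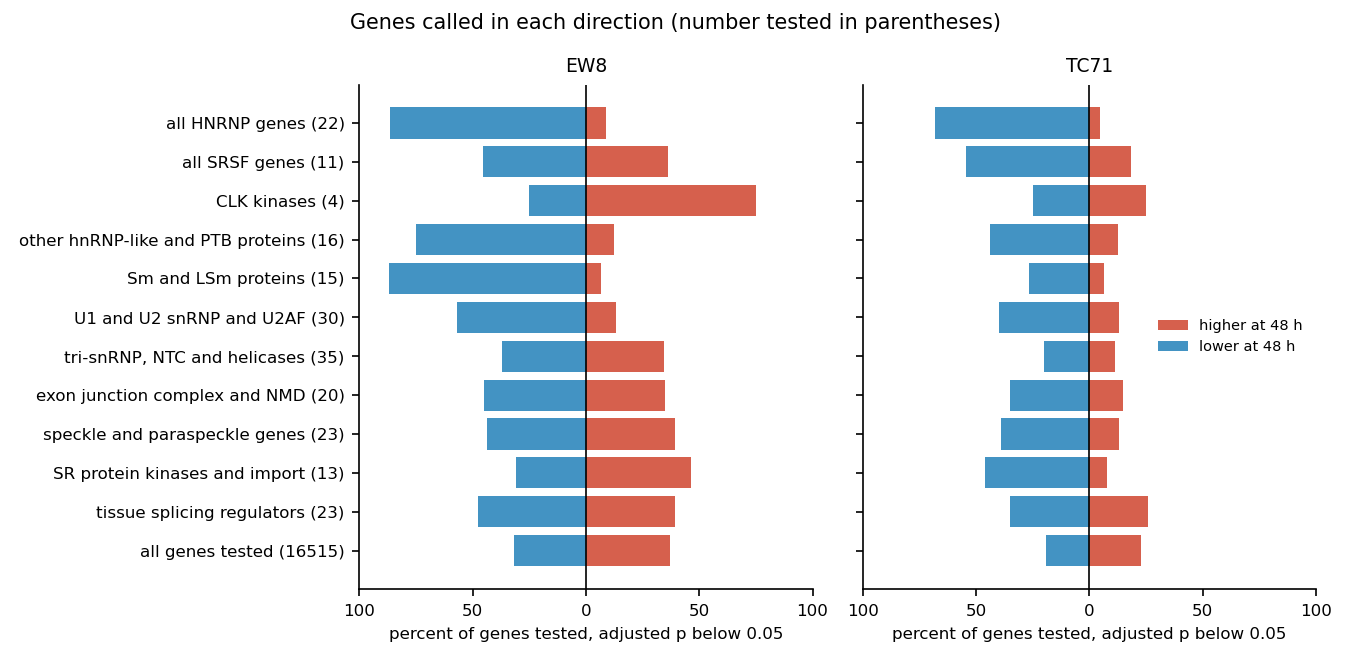
Percent of tested genes called higher (red, to the right) or lower (blue, to the left) at 48 h in EW8 and TC71 for 3 classes of splicing factor genes, 8 lists of other splicing genes and all genes tested, with the number tested in parentheses. The HNRNP bar reaches 86.4% lower in EW8, where all tested genes reach 31.6%.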

How the data were processed

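Poly(A)-selected, stranded RNA-seq (NovaSeq, paired-end) was examined in 12 libraries at 0 h and 48 h, with 3 from each time of each RRM1 knockout line. The deposited values are raw read counts per gene. Per the labels, the authors aligned reads to hg38 with STAR after FastQC; the counting tool, its strand setting and the annotation are not given in the sources used here. Genes were filtered with filterByExpr (minimum count 10, total 15), scaled by TMM and tested with edgeR 4.0.16 (R 4.3.3; robust quasi-likelihood fit, 1 model over all 12 libraries), with Benjamini-Hochberg adjustment over 16515 genes and a threshold of 0.05. Where a fold limit is given it is 2. SE is the log2 fold change divided by the root of F. CPM are TMM-scaled, and CPM per kb use the canonical transcript of GENCODE 44, which matched 42 of 42 members and 15991 of 16515 tested genes. Promoters are from RefSeq. DESeq2 1.42.0 was an alternative.

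No pair of libraries agreed within sampling noise. The chi-square per gene between replicates, which grows with their disagreement, was 7.57 and 9.16 for the pairs with TC71 48 h replicate 3. It was 1.98 to 4.93 for all other pairs. The mitochondrial share of that library was 2.68%, beside 3.97% and 3.99% in the rest of its group. Nothing in the labels says that replicates were separate cultures, so p-values measure the spread between these libraries, which may be technical. The members, lists and tests were chosen with earlier results of these data known. Named genes are all CLK, TRA2 and SRRM genes and the 5 largest called rises and falls of SRSF and of HNRNP genes per line. Also named are the 5 smallest p-values for the difference of responses and the 3 most different genes at 0 h in each direction. Of the genes with the largest rise or fall of a related list in a line, only some are named. HNRNPL, HNRNPU, HNRNPC, HNRNPD, HNRNPM, HNRNPH1, HNRNPH2, HNRNPCL1, HNRNPUL1, HNRNPUL2 and SRSF6 were named after their values were seen. So were PPP1CA, PPP1R8, RBM39, KHDRBS1, JUN and FOS. The 4 promoters shown were also chosen after the values were seen. The steps were also run on simulated data in which few genes changed, equally up and down. That setting cannot test the scaling where most genes change, as in EW8.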

Additional observations from a re-analysis of the deposited data

Results flagged for a closer look

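Responses that differed between EW8 and TC71 were drawn out by the test of the difference itself. The log2 change was higher in EW8 than in TC71 for 11 of the 42 splicing factor genes and lower for 21, against 25.7% and 22.4% of all tested genes. CLK1 (difference 1.56) and CLK4 (1.30) differed by more than 2-fold. The difference of SRRM3 was 1.71, but the gene passed the filter on low counts only through the group where it is high, and its highest library held 23 counts. SRSF3 (difference 0.30) and SRSF12 (difference -0.52) were called in opposite directions in the 2 lines. The TC71 calls of both genes, and the EW8 call of SRSF12, were lost in some alternatives. These 5 genes were singled out with the results known.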

How the results depend on the processing

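For the 30 members named by rule, no direction turned with a call in EW8 or TC71. Of their 629 EW8 values 621 kept both direction and call, as did 579 of 628 in TC71. Members named after their values were seen are not in these numbers. Without a call in either setting, the sign changed for SRRM2 in EW8 with total counts (0.0774), for SRRM1 in TC71 with upper-quartile factors (-0.00945) and without 48 h replicate 2 (-0.0279), and for SRRM3 in TC71 without 0 h replicate 1 (-0.00705) or 48 h replicate 1 (-0.14). Requiring 2-fold left 5 rising and 1 falling in EW8, 0 and 0 in TC71, 3 and 0 for the difference, and 0 and 0 between the lines at 0 h. Total counts alone moved the median of all genes by 0.13 in EW8 and gave 9 rising in TC71 and, at 0 h, 11 higher in EW8 and 18 higher in TC71; upper-quartile factors gave 14 higher in TC71, and a minimum of 10 counts in every library 13. With total counts, log2 ratios of summed CPM were -0.31 for all members, 0.0659 for SRSF, -0.51 for HNRNP, 0.0716 for TRA2, 1.003 for CLK and 0.18 for SRRM in EW8, and -0.14 for all members and -0.00674 for TRA2 in TC71. Without members with close copies the SRSF ratio in EW8 was -0.12. The cause of these shifts was not tested.

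Leaving out 1 library gave 11 to 12 rising and 25 to 27 falling in EW8, 2 to 5 and 19 to 24 in TC71, 10 to 12 and 20 to 26 for the difference, and 19 to 21 and 7 to 12 at 0 h. The 2 rising in TC71 came without 0 h replicate 1 or 2. Same-numbered libraries had correlations of deviations of -0.04, -0.05 and -0.01 in EW8 and -0.04, -0.08 and -0.14 in TC71. Differently numbered libraries had -0.02 to 0.06 in EW8 and -0.02 to 0.10 in TC71. These values show no pairing by replicate number, but with 3 libraries per group they cannot exclude one. With the replicate block, 38 members were called in EW8, 23 in TC71, 30 for the difference and 28 at 0 h, all of them also called without it. Depth was lowest for HNRNPCL1 and SRRM3, with at most 12 and 23 counts in any library.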

Other observations

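Rows named like these genes but ending in P plus digits, the pattern of processed pseudogenes, numbered 58, and 33 passed the filter on low counts. In EW8, 5 were called higher and 14 lower, with a median log2 fold change of -0.43, and in TC71 3 were higher and 3 lower, with a median of -0.29. Among all tested genes, 37.0% were called higher and 31.6% lower in EW8, and 22.9% and 19.2% in TC71. Together the 58 rows held between 1269 and 2891 counts per library, at most 0.455% of the counts of the 42 genes. Reads of the parent genes and of these copies may be interchanged by alignment, which was not tested.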
